A study of Mus musculus with 26 samples.

Results

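Reelin is a large glycoprotein that cells near the surface of the developing cortex secrete into the tissue around them. It binds the lipoprotein receptors Vldlr and Apoer2 (the product of Lrp8) on migrating neurons and radial glia. The bound receptors lead Src-family kinases to phosphorylate the adaptor Dab1 inside the cell. Mice without Reelin, without Dab1 or without both receptors have cortical layers in disturbed order, which is why this pathway is known above all for the positioning of neurons. The genes described here are the ligand Reln, the receptor genes Vldlr and Lrp8, and the adaptor Dab1. These 4 genes were taken by symbol from the 30406 genes that all nuclei libraries list, and were followed across classes of nuclei, genotypes and treatments.

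The libraries hold nuclei of the prospective somatosensory cortex of male C57Bl/6N embryos at E15.5. Dams had been injected into the peritoneum at E12.5 with saline or with poly(I:C), a double-stranded RNA analogue that the body meets as it would a virus, and the poly(I:C) groups are called MIA (maternal immune activation). Embryos were wild type or lacked Csf1r (Csf1r-/-, here Csf1r-null), the receptor that microglia need to develop, so that the study asked whether the response to MIA depends on microglia. Each of the 4 groups had 2 libraries, made from a single embryo or a pooled pair, and which library came from which dam is not given in the sources used here. Csf1r is missing from all cells of the mutants throughout development. The injection was given to the dam, and the study describes the wild-type embryos as littermates of the mutants, from fewer dams than libraries. Libraries of the same treatment can therefore share a dam, but the tests below treat libraries as independent. P-values measure the spread between these libraries and not between dams. Since the dam of each library is not known, no test could take the dam as its unit.

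Barcodes with at least 500 UMIs (counted RNA molecules) and 200 genes gave 43456 nuclei, of which 41539 remained after removal of 1917 presumed doublets. A library held between 9897721 and 17605575 UMIs, and its median nucleus between 1469 and 2953.5. Libraries shared between 0 and 14 barcodes per pair. Microglial genes went against the genotype label in 2 libraries. The library labelled wild-type MIA 2 had 0 UMIs of Csf1r, 45 UMIs of 10 microglial markers and 0 microglia-like nuclei. The library labelled Csf1r-null saline 2 had 10, 190 and 7. The other wild-type libraries had 11 to 23 Csf1r UMIs, 262 to 451 marker UMIs and 6 to 9 microglia-like nuclei, and the other Csf1r-null libraries 1 to 4, 58 to 89 and 0. The results on MIA and genotype below rest on these labels, and many are also given without these 2 libraries.

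The nuclei fell into 19 classes, 13 of which could be named from marker lists. Cajal-Retzius-like nuclei, the class of the early marginal zone neurons known as the main source of Reelin, numbered 137 (9 to 25 a library), and all 8 of their markers, Trp73, Lhx1 and Ndnf among them, were higher there than in any other named class. The MGE interneuron-like class (2246 nuclei) was highest for Lhx6, Sst, Nxph1 and Npy, 4 of its 6 markers. Along the excitatory lineage, the named classes were apical progenitor-like (3048 nuclei), intermediate progenitor-like (2837), migrating neuron-like (5539), subcerebral neuron-like (2402) and corticothalamic neuron-like (4084). Clusters that matched no single list are called by their 2 leading genes. Ndst3/Pdzrn3 nuclei (3434) scored highest on the callosal list, with the migrating list close behind. Inhba/Ntm nuclei (5245) scored first on the callosal list and Lrrtm3/Opcml (3507) and Unc5c/Kcnip4 nuclei (829) on the corticothalamic list, followed in the Unc5c/Kcnip4 nuclei by the subplate list. Striatal-like ventral nuclei came mostly from wild-type saline 1, with 724 of 851, a ventral type of neuron that the other libraries held in 9 to 45 nuclei each. The list of interneurons from the caudal ganglionic eminence scored second there (2.33 against 2.75). Of the 6 striatal markers, 2 (Isl1 and Zfp503) were highest in this class. A level is given in CPM, the UMIs of the gene per 1000000 UMIs of that class in that library, as a mean ± SD over libraries with at least 5 nuclei of the class.

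Reln (ENSMUSG00000042453, chromosome 5:21884454-22344702, minus strand, GRCm38) was concentrated in a small number of nuclei. In Cajal-Retzius-like nuclei it reached 6680 ± 955 CPM (SD, n = 8 libraries), 33.0 times the mean of the MGE interneuron-like class, the next in order, and the class was above it in 8 of 8 libraries. By library, the level was 6670 and 7740 CPM in wild-type saline, 7250 and 5950 in wild-type MIA, 6430 and 5950 in Csf1r-null saline, and 8090 and 5330 in Csf1r-null MIA. The 137 Cajal-Retzius-like nuclei made up 0.33% of all nuclei and held 66.5% of all Reln UMIs. After thinning each nucleus to 1000 UMIs, 97.7% of 132 such nuclei still had a Reln UMI, against 98.5% with all UMIs. A single nucleus held between 0 and 114 Reln UMIs, with a median of 20.0, and 2 of the 137 held 0. All 71 nuclei in the data with at least 20 Reln UMIs, and 105 of the 108 with at least 10, belonged to this class, and the other 3 were MGE interneuron-like.

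MGE interneuron-like nuclei, which migrate into the cortex from the medial ganglionic eminence, were the second source, with 202 ± 84.4 CPM (SD, n = 8), 16.4% of Reln UMIs and 13% of thinned nuclei positive (453 of 2246 with all UMIs). Striatal-like ventral nuclei had a like mean, 192 ± 168 CPM, but with a wide spread over few nuclei. Wild-type saline 1, which held most of them, gave 16.4 CPM, so the mean rests on the few nuclei of the other libraries. With all libraries pooled the level was 38.8 CPM. Next came Unc5c/Kcnip4 nuclei at 34.5 ± 13.2 CPM, above the Lrrtm3/Opcml nuclei (15.5 ± 11.2) in 8 of 8 libraries. The remaining classes with at least 5 nuclei in all 8 libraries were between 1.77 and 13.7 CPM, and neighbours in their order were not separated by more than their spread. The other 3 classes, dividing Dlx-positive, pericyte-like and microglia-like, held 4 Reln UMIs in all.

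Free RNA can give UMIs to nuclei that do not express a gene. Barcodes with 1 to 50 UMIs, which the replicate 1 libraries list, held 32.2 to 45.6 CPM of Reln. Among thinned nuclei, 0.342% of apical progenitor-like and 0.0644% of dividing apical progenitor-like nuclei had a Reln UMI, a level read as background, against 1.04% of migrating neuron-like and 1.13% of corticothalamic neuron-like nuclei. The median nucleus of these classes held 1479, 2201, 1798 and 3219.5 UMIs before thinning. Values of Reln under the empty-barcode level are not read here as expression. That level gives the make-up of free RNA and not the amount it adds to a nucleus. Whether a class below it expresses a gene at a low level was not tested, here or for the other members.

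**Figure D1:**
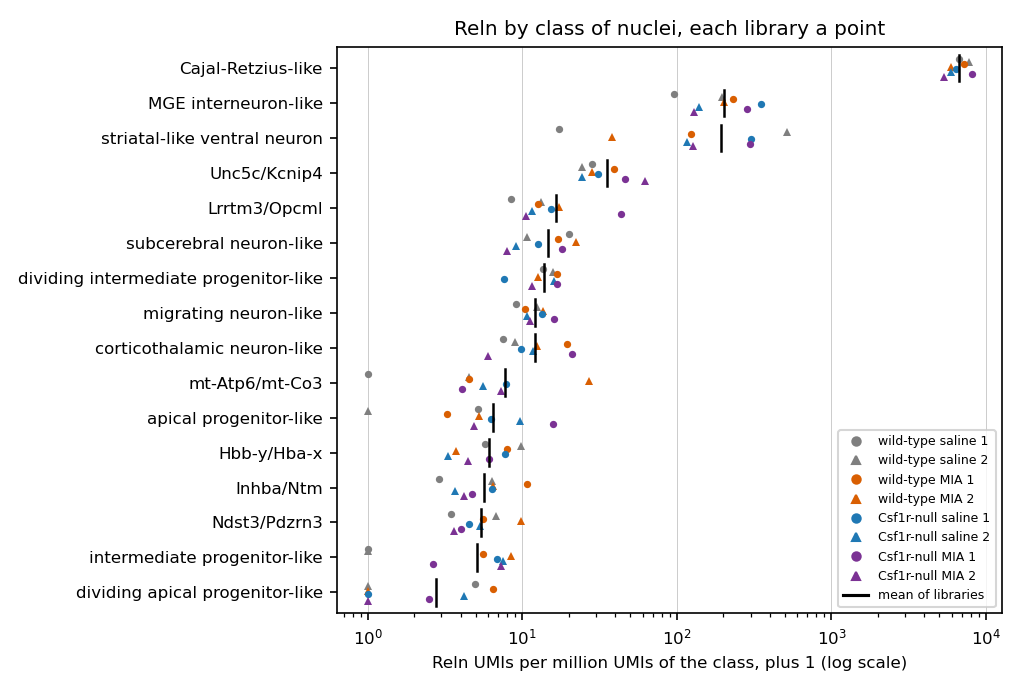
Reln level (CPM plus 1, log axis) in each class with at least 5 nuclei in all 8 libraries. Each point is a library, colour gives the group and shape the replicate number, and the black bar is the mean. Cajal-Retzius-like nuclei sit at 5330 to 8090 CPM in all 8 libraries, with MGE interneuron-like nuclei next at 94.6 to 348.

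MGE interneuron-like nuclei with a Reln UMI differed from the rest of their class in known subtype genes. Of this class, 453 nuclei had a Reln UMI and 1793 did not. At least 5 Reln UMIs were held by 37 of the 453, and how many of the others carried free RNA was not tested. Sst, the gene of the peptide somatostatin, averaged 1020 ± 407 CPM (SD, n = 8) in nuclei with Reln and 448 ± 202 in those without, and was higher with Reln in 8 of 8 libraries. Npy, which encodes neuropeptide Y, followed the same direction in 7 of 8 libraries (533 ± 193 against 246 ± 144 CPM), as did Sox6, a transcription factor of this lineage (433 ± 78.8 against 331 ± 60.2), and Lhx6, the factor that defines MGE interneurons (551 ± 128 against 482 ± 77.0). Maf, a transcription factor of the same lineage, went the other way, with 1120 ± 269 CPM in nuclei with Reln and 1710 ± 241 in those without, lower in 8 of 8 libraries. Nxph1, a secreted neurexin ligand, was higher in 4 of 8. The markers of interneurons from the caudal ganglionic eminence Adarb2, Prox1, Sp8 and Htr3a were all under 5 CPM on either side, while Nr2f2 averaged 48.9 ± 37.6 against 18.4 ± 8.31 CPM. Npas3, the other gene of that list of 6, averaged 283 ± 60.6 against 264 ± 75.5 CPM and was higher with Reln in 4 of 8 libraries. Nuclei with a Reln UMI held more RNA (median 2471 against 1658 UMIs). Since a Reln UMI chose these nuclei, these values describe the class and were not tested.

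**Figure D2:**
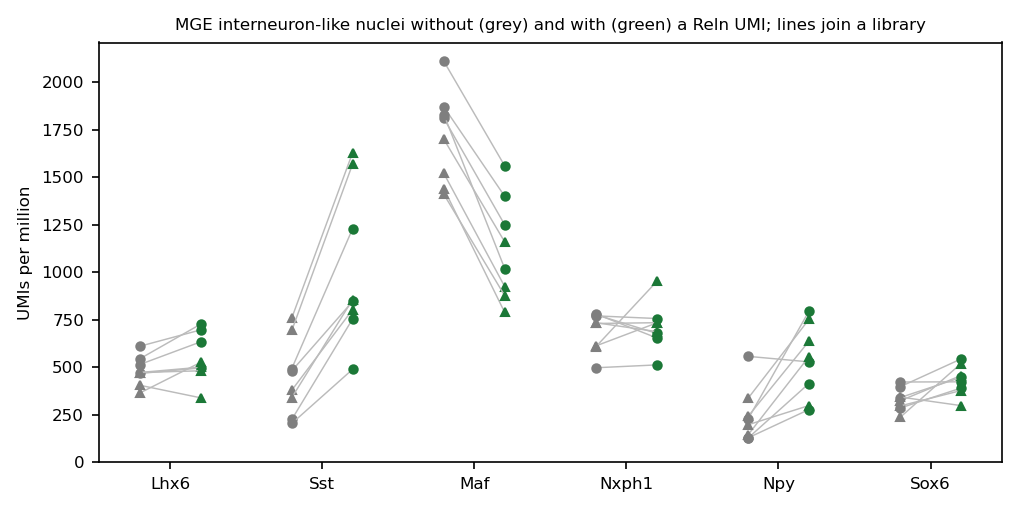
Level (CPM) of the 6 MGE interneuron markers in MGE interneuron-like nuclei without (grey, left) and with (green, right) a Reln UMI. Each line joins the values of a library, with circles for replicate 1 and triangles for replicate 2. Sst is higher and Maf lower on the right in all 8 libraries.

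The receptors carry the docking site for Dab1 in the part that lies inside the cell. Both coding sequences hold a single NPxY motif, the stretch to which the phosphotyrosine-binding domain of Dab1 attaches, and the coding DNA around it is shown because both receptors hand the signal to the same adaptor there. Capitals mark the 12 bases of the motif, read from the GENCODE M21 transcripts of GRCm38 on the plus strand.
Vldlr, chr19:27247931-27247960, exon 18: aactttgacAATCCTGTGTACttgaagacc
Lrp8, chr4:107869052-107869081, exon 17: aatttcgacAACCCAGTGTACaggaaaacg
The stretches share 22 of 30 bases, and 10 of the 12 in the motif. The site lies 95.5% of the way along the 873 codons of Vldlr and 89.5% along the 955 of Lrp8. The receptor genes were highest in different classes.

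Among classes of at least 100 nuclei, Lrp8 (ENSMUSG00000028613, chromosome 4:107802261-107876840, plus strand) was highest in intermediate progenitor-like nuclei. Intermediate progenitor-like nuclei, the basal progenitors that give rise to excitatory neurons, had 591 ± 101 CPM (SD, n = 8), and dividing ones 519 ± 80.5. Migrating neuron-like nuclei followed with 411 ± 58.6, Ndst3/Pdzrn3 nuclei with 266 ± 53.6 and Inhba/Ntm nuclei with 175 ± 35.4. Each step down from the intermediate progenitor-like to the Inhba/Ntm nuclei held in 8 of 8 libraries, other than that from non-dividing to dividing intermediate progenitor-like nuclei, which held in 7. Unc5c/Kcnip4 nuclei, which scored first on the corticothalamic list, had 222 ± 15.6 CPM, a mean between those of Ndst3/Pdzrn3 and Inhba/Ntm nuclei. Apical progenitor-like nuclei, the radial glia at the ventricle, had 91.5 ± 23.5 CPM, below the intermediate class in 8 of 8 libraries and under the empty-barcode level of 114 to 131 CPM, so that this level is not read as expression. Subcerebral (139 ± 19.1), corticothalamic (136 ± 21.2), MGE interneuron-like (143 ± 28.2) and Cajal-Retzius-like nuclei (131 ± 67.3) were close to each other and not separated by more than their spread. Their means lay at or little above the upper end of the empty-barcode range, which comes from the replicate 1 libraries. In those libraries alone the means were 123 (subcerebral), 122 (corticothalamic) and 123 (MGE interneuron-like), within that range, and 101 (Cajal-Retzius-like), below it.

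After thinning, 39.6% of intermediate progenitor-like, 31.1% of migrating neuron-like and 8.17% of apical progenitor-like nuclei had an Lrp8 UMI (53.4%, 47.3% and 12.7% with all UMIs). The small pericyte-like class, the mural cells of vessels, had a mean of 642 ± 602 CPM over 7 libraries, which rests on 73 UMIs in 14 of 58 nuclei and ranged from 0 to 1600 CPM between libraries. The level of Lrp8 also moved with the replicate number. In intermediate progenitor-like nuclei the replicate 1 libraries had 453 to 580 CPM and the replicate 2 libraries 622 to 721, without overlap, and over all nuclei 171 to 204 and 218 to 279. Embryo, software version, gene list and barcode filter all changed with the replicate number and cannot be told apart.

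Vldlr (ENSMUSG00000024924, chromosome 19:27216484-27254231, plus strand) was low in intermediate progenitor-like and migrating neuron-like nuclei, where Lrp8 was high, and highest in corticothalamic neuron-like nuclei. It had 116 ± 20.9 CPM (SD, n = 8) in corticothalamic neuron-like, 107 ± 16.4 in Lrrtm3/Opcml and 106 ± 23.2 in subcerebral neuron-like nuclei, which differed by less than their spread. Striatal-like ventral nuclei had 113 ± 67.4, but 63.8 CPM with all libraries pooled. Unc5c/Kcnip4 nuclei, which also scored first on the corticothalamic list, had 60.7 ± 21.6. MGE interneuron-like nuclei had 65.0 ± 16.7, Inhba/Ntm nuclei 59.9 ± 8.66, apical progenitor-like nuclei 43.1 ± 11.4 and Cajal-Retzius-like nuclei 21.5 ± 18.5. Migrating neuron-like nuclei had 15.5 ± 3.97 CPM and intermediate progenitor-like nuclei 7.10 ± 3.75, both below the corticothalamic class in 8 of 8 libraries. Thinned nuclei with a Vldlr UMI made up 10.4% of the corticothalamic and 0.762% of the intermediate progenitor-like class (29.9% and 1.23% with all UMIs). Empty barcodes held 39.2 to 51.1 CPM, above both classes at the low end and the Cajal-Retzius-like class, whose levels are not read as expression. The mean of apical progenitor-like nuclei lay within that range.

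Dab1 (ENSMUSG00000028519, chromosome 4:103619359-104744844, plus strand) was highest in postmigratory neurons. Empty barcodes held 177 to 219 CPM of Dab1, above the means of the Hbb-y/Hba-x class, of both apical progenitor-like classes and of the classes below them. Those levels are not read as expression here, but whether the apical classes lack Dab1 was not tested. Apical progenitor-like nuclei had 143 ± 26.1 CPM (SD, n = 8) and dividing ones 148 ± 12.6, which did not differ beyond their spread. Intermediate progenitor-like nuclei had 38.1 ± 7.53 and migrating neuron-like nuclei had 20.8 ± 7.66, both below the apical class in 8 of 8 libraries. The level was 198 ± 42.8 in Ndst3/Pdzrn3 nuclei, within the range of empty barcodes. It was 467 ± 27.6 in Inhba/Ntm nuclei and 475 ± 30.2 in Lrrtm3/Opcml nuclei. Subcerebral neuron-like nuclei were the highest class with 577 ± 41.4, above the migrating class in 8 of 8 libraries. Corticothalamic neuron-like nuclei had 390 ± 46.6.

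Unc5c/Kcnip4 nuclei had 42.4 ± 8.54 CPM of Dab1, above the migrating class in 8 of 8 libraries and near the intermediate progenitor-like class. The subcerebral class was above it in 8 of 8 libraries. MGE interneuron-like nuclei (22.7 ± 7.59) and Cajal-Retzius-like nuclei (15.9 ± 21.6, from 9 UMIs) were at the level of the migrating class. After thinning, 42.1% of subcerebral, 11.6% of apical progenitor-like, 3.53% of Unc5c/Kcnip4 and 1.88% of migrating neuron-like nuclei had a Dab1 UMI. With all UMIs these shares were 78.2%, 18.3%, 12.2% and 3.79%. Replicate 1 libraries were above replicate 2 libraries without overlap in subcerebral (588 to 637 against 531 to 562 CPM) and corticothalamic nuclei (416 to 437 against 324 to 392). Without the 2 libraries against their labels, means in the highest class of more than 100 nuclei were 6920 CPM for Reln in Cajal-Retzius-like nuclei. They were 548 for Lrp8 in intermediate progenitor-like, 118 for Vldlr in corticothalamic neuron-like and 588 for Dab1 in subcerebral neuron-like nuclei. Leaving out 2 of 8 libraries cannot move a mean beyond their SD, so these values are a description.

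**Figure D3:**
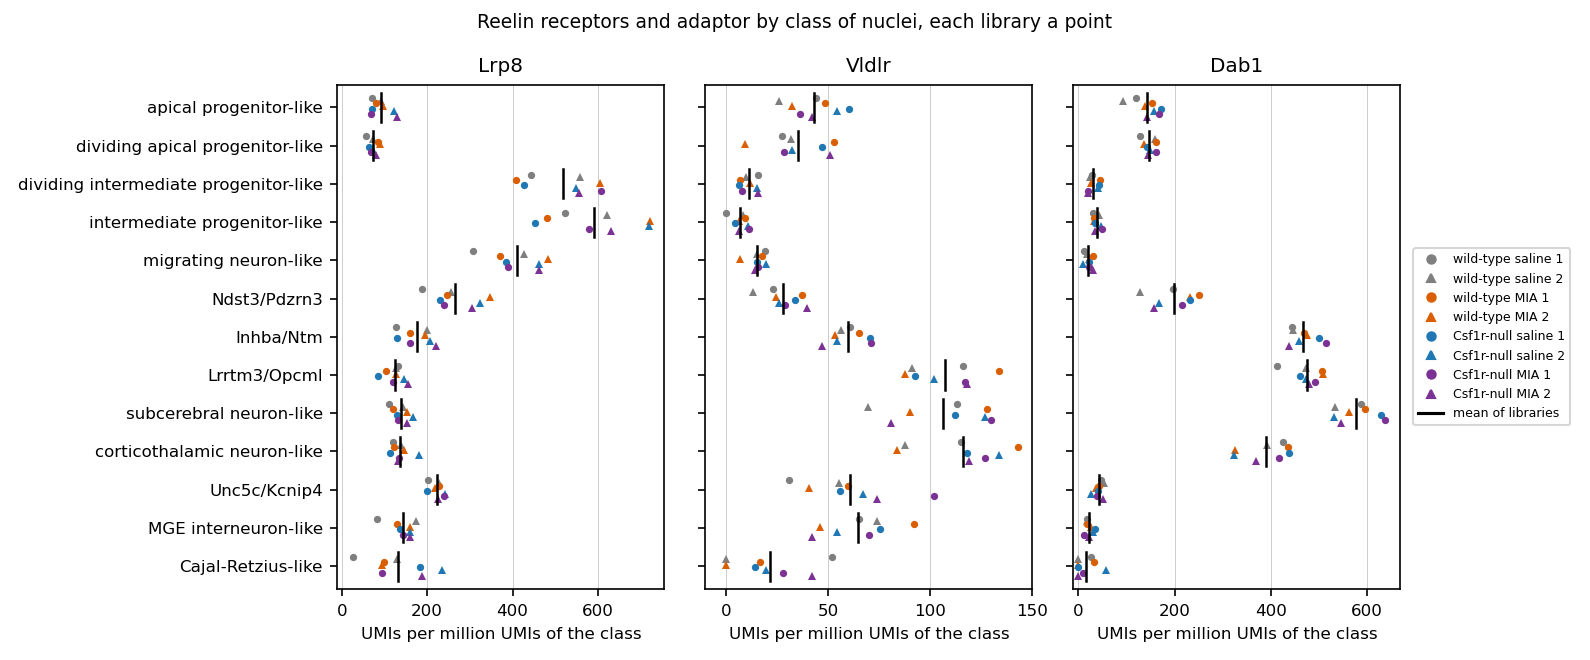
Level (CPM) of Lrp8, Vldlr and Dab1 in 13 classes, ordered from progenitors through migrating and excitatory neurons to interneurons and Cajal-Retzius-like nuclei. Each point is a library, colour gives the group and shape the replicate number, and the black bar is the mean. Lrp8 peaks in intermediate progenitor-like nuclei (591 CPM), where Vldlr (7.10) and Dab1 (38.1) are low, and Dab1 peaks in subcerebral neuron-like nuclei (577 CPM).

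For each member the 5 genes with the most similar pattern were taken by Pearson's r of log2(CPM + 1) over the 13 named classes, among 13751 genes with at least 10 CPM in some class. These r values describe class means that come from the same libraries and carry no test. Nearest to Reln were Tmem200a (r = 0.961, 36 UMIs in Cajal-Retzius-like nuclei) and Snhg11 (0.944, 2853 UMIs). The other 3, Zbtb8b (0.940), Gm9767 (0.934) and 1700102P08Rik (0.925), had 4 to 6 UMIs in that class and passed the minimum of 10 CPM only through it, which fixes where they are highest. Dab1 was most like B3gat1 (0.948), Rab10, Ldb2, Pcdh9 and Cct4 (0.884). Vldlr was most like Cers1 (0.965), Mapk4, Wrb, Syt16 and Ica1l (0.954). Closest to Lrp8 were Ust (0.863), Cerkl, Nhsl1, Col14a1 and Pcdhga12 (0.834), the last pair of which was highest in the small pericyte-like class. The order depends on the small classes. Over the 11 named classes with at least 100 nuclei, an alternative added after seeing the data, the first gene was Tmx4 for Reln (0.967), Rorb for Dab1 (0.932), Zdhhc9 for Vldlr (0.942) and Ranbp10 for Lrp8 (0.908). Reln overlaps 7 annotated genes and pseudogenes, 4 of them on the other strand, and Lrp8 overlaps the antisense genes Lrp8os1 and Lrp8os2. Dab1 overlaps 2 pseudogenes, 1 of them on the other strand. Whether reads were counted by strand is not given in the sources used here.

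The first question under MIA is whether the source of Reelin changed. Cajal-Retzius-like nuclei made up 0.199% and 0.246% of nuclei in wild-type saline, 0.432% and 0.236% in wild-type MIA, 0.367% and 0.388% in Csf1r-null saline, and 0.479% and 0.272% in Csf1r-null MIA. Wild-type saline 1 held most of the striatal-like ventral and dividing Dlx-positive nuclei, and without these classes its share was 0.251%. The difference between treatments was then 0.0416 percentage points (exact permutation p = 0.6667), against 0.0547 with these classes. The exact Clopper-Pearson 95% intervals are wide, from 0.0912 to 0.378% for the lowest library, and the groups overlap. The mean was 0.300 ± 0.0918% after saline and 0.355 ± 0.119% after MIA (SD, n = 4 each), with p = 0.5556 in a two-sided exact permutation test of treatment within genotype, whose smallest possible p is 0.0556. Cajal-Retzius cells lie under the meninges, which were removed at dissection, and its part in these shares was not tested. Without the 2 libraries against their labels the difference was 0.109 percentage points (exact permutation p = 0.4444). Single libraries set its size, which was 0.00289 percentage points without Csf1r-null MIA 1, 0.00568 without wild-type MIA 1, 0.104 without wild-type MIA 2 and 0.106 without Csf1r-null MIA 2, with exact permutation p-values of 0.1111 to 1.

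Within Cajal-Retzius-like nuclei, the level of Reln was 6700 ± 757 CPM after saline and 6660 ± 1250 after MIA (exact permutation p = 0.9444), a difference of -42.5 that turned to 162 without the 2 libraries against their labels (exact permutation p = 1). Their part of all Reln UMIs was 64.1 ± 4.87% after saline and 66.5 ± 5.16% after MIA (exact permutation p = 0.6667). Without the 2 libraries against their labels the difference was 7.52 percentage points, and each MIA library was above the saline libraries of its genotype. That leaves 1 wild-type MIA and 1 Csf1r-null saline library, too few for the permutation test to give a low p. Over all nuclei, Reln was 35.5 and 47.8 CPM in wild-type saline, 76.2 and 41.8 in wild-type MIA, 56.0 and 47.9 in Csf1r-null saline, and 87.9 and 37.4 in Csf1r-null MIA. The means were 46.8 ± 8.46 and 60.8 ± 25.0 CPM, a difference of 14 (exact permutation p = 0.4444). Without the striatal-like ventral and dividing Dlx-positive nuclei wild-type saline 1 had 39.9 CPM and the difference was 13.2 (exact permutation p = 0.4444). Adjusted over these 4 tests, p was 0.8889 for 3 of them and 0.9444 for the level within Cajal-Retzius-like nuclei. Beside those p-values, MIA less saline over all nuclei was 40.7 CPM in wild type and 31.9 in Csf1r-null among replicate 1 libraries, and -6.00 and -10.5 among replicate 2 libraries, so that the sign differed between the replicate numbers. The share of Cajal-Retzius-like nuclei moved along, by 0.233 and 0.112 percentage points in replicate 1 and by -0.00960 and -0.116 in replicate 2. Without the 2 libraries that went against their labels the difference in level over all nuclei was 20.6 CPM (exact permutation p = 0.4444). It was 1.4 CPM without Csf1r-null MIA 1, 5.43 without wild-type MIA 1, 22.6 without wild-type MIA 2 and 26.7 without Csf1r-null MIA 2, with exact permutation p-values of 0.1111 to 0.9444.

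**Figure D4:**
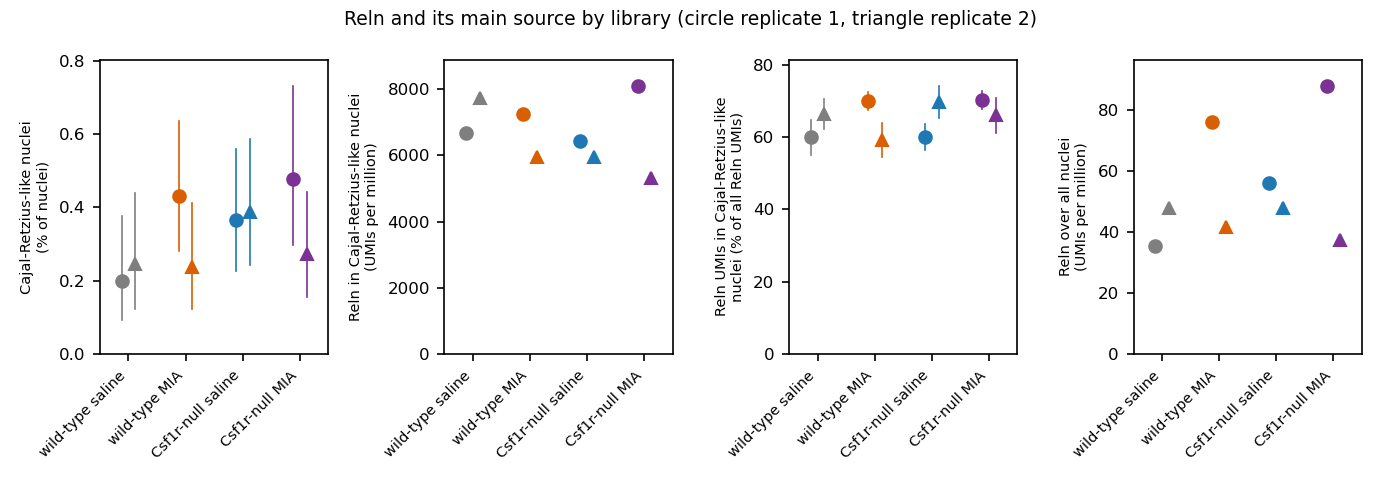
Share of Cajal-Retzius-like nuclei, Reln level in them, their part of all Reln UMIs and Reln level over all nuclei, by group. Circles are replicate 1, triangles replicate 2, and the thin lines are exact 95% intervals of the shares. For the share of nuclei they cover counting error. For the part of Reln UMIs they take each UMI as independent and leave out the sampling of the few nuclei that hold them. Over all nuclei the replicate 1 MIA libraries stand highest (76.2 and 87.9 CPM), and the replicate 2 MIA libraries (41.8 and 37.4) lie below the replicate 2 saline libraries.

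Genes were then tested class by class in the 14 classes with at least 200 nuclei in all and 20 in every library, which leaves out the Cajal-Retzius-like class. Dab1 and Lrp8 passed the filter on low counts in 14 classes, Vldlr in 12 and Reln in 6, which gave 46 results per comparison. No member was called at an adjusted p of 0.05 (edgeR's quasi-likelihood test, Benjamini-Hochberg over all genes of a class) in any of the 5 comparisons, nor by DESeq2. The background was low as well in this main fit, which holds no replicate block. Of 123824 gene and class pairs, 0.0% were called for MIA against saline in wild type, in Csf1r-null, for the difference of these responses and for Csf1r-null against wild type, and 0.000808% for MIA over both genotypes. At an unadjusted p under 0.05, 6 of 230 member results passed, which is 2.61%, against 5.87%, 1.63%, 3.1%, 3.54% and 3.88% of all genes in the same order. With the replicate number as a block, since same-numbered libraries deviated together, 731 pairs (0.59%) were called for MIA in wild type, 7 (0.00565%) in Csf1r-null, 14 (0.0113%) for the difference of the responses, 92 (0.0743%) for MIA over both genotypes and 120 (0.0969%) for genotype, and again no member. DESeq2 called 0.0517%, 0.000808%, 0.0%, 0.0121% and 0.00323% of pairs for MIA in wild type, in Csf1r-null, the difference, MIA over both genotypes and genotype. Pairs to which DESeq2 gave no adjusted p count as not called, members included. Without a filter on low counts edgeR called 0.133%, 0.00683%, 0.0188%, 0.0294% and 0.0392% of 234397 pairs, also with no member among them.

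Of the ligand, MGE interneuron-like nuclei had 94.6 and 195 CPM in wild-type saline, 231 and 201 in wild-type MIA, 348 and 138 in Csf1r-null saline, and 283 and 128 in Csf1r-null MIA. Both wild-type MIA libraries lay above both saline libraries, and the Csf1r-null groups overlapped. Within same-numbered pairs the MIA library was higher in both wild-type pairs and lower in both Csf1r-null pairs. On the scale of the fit, which divides by TMM factors (trimmed means of log ratios between libraries), the second wild-type pair had the other sign, with 208 in saline and 207 in MIA. Wild-type saline 1, the lowest library, was also the one with 724 of the 851 striatal-like ventral nuclei and with the most MGE interneuron-like nuclei (395), and the part of its ventral nuclei in this value was not tested. The log2 fold change was 0.57 ± 0.40 (SE) in wild type and -0.24 ± 0.39 in Csf1r-null, and their difference was 0.81 ± 0.56 (edgeR adjusted p = 0.989). The wild-type change rested on the saline libraries: it was 0.073 without wild-type saline 1 and 1.188 without wild-type saline 2, with edgeR adjusted p-values of 0.9835 and 0.7444. In Unc5c/Kcnip4 nuclei the changes were 0.41 ± 0.48 and 0.93 ± 0.42, the latter with an unadjusted p of 0.0429 in edgeR and an adjusted p of 1. Levels there were 27.4 and 23.4 CPM in wild-type saline, 38.1 and 27.3 in wild-type MIA, 29.8 and 23.4 in Csf1r-null saline, and 45.2 and 61.2 in Csf1r-null MIA, and these lie near the empty-barcode level. The wild-type groups overlapped there, and both Csf1r-null MIA libraries lay above both saline libraries. Within same-numbered pairs the MIA library was higher in 4 of 4, and with the replicate block the changes were 0.434 in wild type and 0.905 in Csf1r-null (edgeR adjusted p = 0.9972 and 0.9987). In Lrrtm3/Opcml nuclei, whose mean of Reln is under the empty-barcode level and is not read as expression, the changes were 0.37 ± 0.73 and 0.92 ± 0.55. There single libraries set the value, which was 0.042 without wild-type MIA 2 and 0.949 without wild-type saline 2, and in Csf1r-null -0.327 without Csf1r-null MIA 1 and 1.636 without Csf1r-null MIA 2. Without the 2 libraries against their labels, the changes in wild type and Csf1r-null were 0.622 and -0.702 in MGE interneuron-like, 0.523 and 0.822 in Unc5c/Kcnip4, and 0.046 and 0.724 in Lrrtm3/Opcml nuclei, none of them called.

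For the receptors, Lrp8 in intermediate progenitor-like nuclei was 522 and 622 CPM in wild-type saline, 481 and 721 in wild-type MIA, 453 and 719 in Csf1r-null saline, and 580 and 631 in Csf1r-null MIA, with overlap in both genotypes and the MIA library higher in 2 of 4 same-numbered pairs. Without the 2 libraries against their labels its change was -0.295 in wild type and 0.464 in Csf1r-null, neither of them called. Its log2 change under MIA was 0.05 ± 0.26 in wild type and 0.05 ± 0.27 in Csf1r-null, with 95% intervals of -0.51 to 0.61 and -0.52 to 0.61. In dividing intermediate progenitor-like nuclei it was -0.04 ± 0.24 and 0.23 ± 0.24, and in migrating neuron-like nuclei 0.18 ± 0.25 and 0.01 ± 0.25. Vldlr in corticothalamic neuron-like nuclei was 115 and 87.6 CPM in wild-type saline, 143 and 83.6 in wild-type MIA, 118 and 134 in Csf1r-null saline, and 127 and 119 in Csf1r-null MIA. MIA and saline overlapped in both genotypes, and the MIA library was higher in 2 of 4 same-numbered pairs, with log2 changes of 0.16 ± 0.24 and -0.02 ± 0.24, or 0.436 and 0.122 without the 2 libraries against their labels. In Lrrtm3/Opcml nuclei those of Vldlr were 0.05 ± 0.25 and 0.20 ± 0.23, and in subcerebral neuron-like nuclei 0.25 ± 0.27 and -0.12 ± 0.28. The lowest adjusted p of a member in any comparison was for Vldlr in Ndst3/Pdzrn3 nuclei under MIA in wild type, a log2 change of 0.755 ± 0.345 (unadjusted p = 0.04924, edgeR adjusted p = 0.5442, and 0.2549 with the replicate block). Levels there were 22.9 and 13.1 CPM in wild-type saline, 37.2 and 24.5 in wild-type MIA, 33.9 and 25.8 in Csf1r-null saline, and 28.8 and 39.5 in Csf1r-null MIA. The wild-type MIA libraries lay above the saline libraries, the Csf1r-null groups overlapped, and the class mean is under the empty-barcode level. The change was 0.365 without wild-type MIA 1, 1.11 without wild-type saline 1, and 0.93 without the 2 libraries against their labels. In Csf1r-null it was 0.133 ± 0.342, and the difference of the responses was 0.622 ± 0.485 (edgeR adjusted p = 0.8344).

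Of the 12 pairs, those of the adaptor had the narrowest intervals. Dab1 in subcerebral neuron-like nuclei was 588 and 532 CPM in wild-type saline, 595 and 562 in wild-type MIA, 628 and 531 in Csf1r-null saline, and 637 and 546 in Csf1r-null MIA. The groups overlapped, and the sign within same-numbered pairs depended on the scale. Per total UMIs the MIA library was higher in 4 of 4 pairs. On the TMM scale of the fit it was lower in both wild-type pairs (581 to 577 and 574 to 568) and higher in both Csf1r-null pairs (615 to 621 and 552 to 572). The log2 change was -0.01 ± 0.20 in wild type and 0.03 ± 0.20 in Csf1r-null, and -0.015 and 0.031 with the replicate block (edgeR adjusted p = 0.9913 and 0.9999). Both signs turned without the 2 libraries against their labels, to 0.023 and -0.053. Over both genotypes it was 0.01 ± 0.14, with a 95% interval of -0.29 to 0.31, or 0.818 to 1.24 on the fold scale. In Lrrtm3/Opcml nuclei the values for Dab1 were 0.14 ± 0.19 and -0.01 ± 0.19, and in Inhba/Ntm nuclei 0.05 ± 0.17 and -0.02 ± 0.17. Its lowest unadjusted p-values under MIA over both genotypes were in classes with less Dab1, with 0.53 ± 0.21 in the Hbb-y/Hba-x nuclei (edgeR adjusted p = 0.9774), a class led by globin genes, and 0.72 ± 0.29 in migrating neuron-like nuclei (edgeR adjusted p = 0.999). Dab1 in the latter was 12.1 and 19.0 CPM in wild-type saline, 31.0 and 21.4 in wild-type MIA, 22.1 and 8.86 in Csf1r-null saline, and 22.3 and 29.8 in Csf1r-null MIA, so that each MIA library was above the saline libraries of its genotype. All of these lie below the empty-barcode level, as does the mean of Dab1 in Hbb-y/Hba-x nuclei (158 ± 47.9 CPM).

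**Figure D5:**
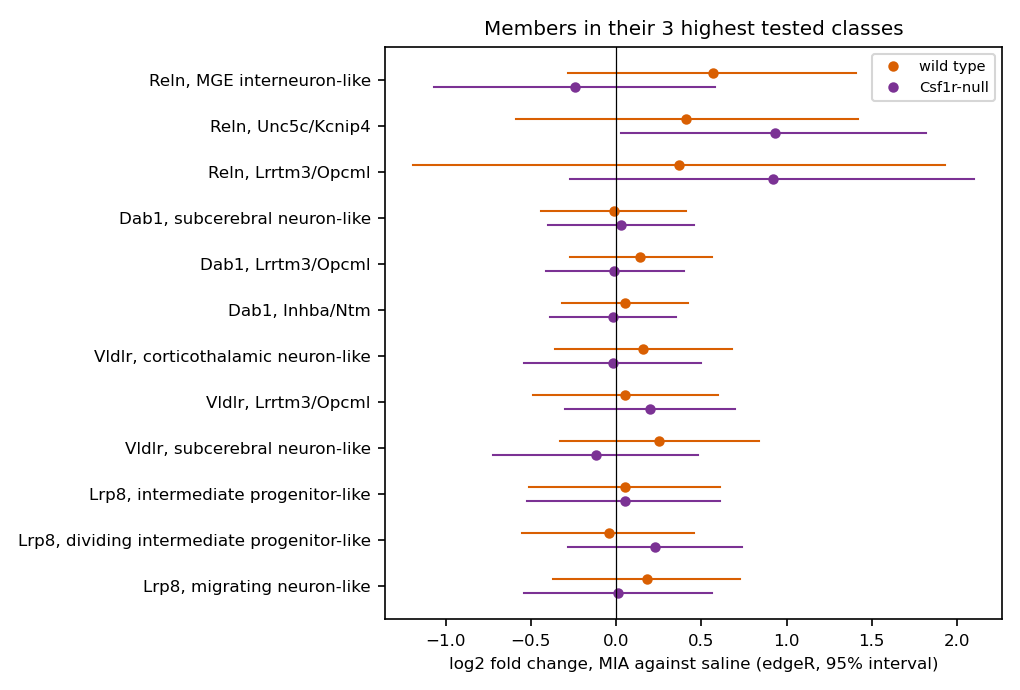
Log2 fold change of MIA against saline with its 95% interval (edgeR) for each member in the 3 tested classes with its highest level. Wild type is orange and Csf1r-null purple. The fit holds no replicate block, so the intervals carry the difference between replicate numbers. The intervals of Dab1 in Inhba/Ntm nuclei are the narrowest (-0.32 to 0.42 and -0.39 to 0.35), and those of Reln in Lrrtm3/Opcml nuclei the widest (-1.19 to 1.93 and -0.27 to 2.10).

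In Csf1r-null against wild-type nuclei over both treatments, the 12 member and class pairs shown had log2 differences of 0.01 to 0.46, with Reln in Lrrtm3/Opcml nuclei highest (0.46 ± 0.46), where the level is under that of empty barcodes and the difference was -0.162 without Csf1r-null MIA 1. None was called, and the lowest adjusted p was 0.958 (edgeR). Without the 2 libraries against their labels the differences were -0.157 to 0.721, and no member was called either. Over all 46 pairs the lowest unadjusted p was for Vldlr in Unc5c/Kcnip4 nuclei (0.61 ± 0.26, edgeR adjusted p = 0.9994) and the next for Dab1 in apical progenitor-like nuclei (0.34 ± 0.15, edgeR adjusted p = 0.8997), whose levels are under that of empty barcodes. These differences were 0.466 and 0.332 without the 2 libraries.

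The other genes of the pathway were described from a list of 40: kinases and adaptors downstream of Dab1 (Fyn, Src, Crk and others), genes of Dab1 turnover (Socs7, Cul5), co-receptors (Itga3, Nrp1), other ligands of the same receptors (Apoe, Clu, Thbs1) and genes of Reelin cleavage or receptor turnover (Adamts3, Mylip). Of these, 37 were tested in at least 1 class, which gave 460 gene and class pairs per comparison. None was called in any of the 5 comparisons by edgeR or DESeq2, nor by edgeR without the 2 libraries against their labels. DESeq2 gave no adjusted p to Clu and Rap1a in apical progenitor-like nuclei for MIA over both genotypes, so it could not call them. At an unadjusted p under 0.05 edgeR passed 29 pairs (6.30%) for MIA in wild type, 8 (1.74%) in Csf1r-null, 10 (2.17%) for the difference of the responses, 16 (3.48%) for MIA over both genotypes and 18 (3.91%) for genotype, close to the shares over all genes of 5.87%, 1.63%, 3.1%, 3.88% and 3.54%. DESeq2 passed 14, 1, 3, 5 and 8 at that threshold. The median log2 change of the pairs was 0.01 in wild type, where class medians over all genes lay between -0.01 and 0.03, and 0.03 over both genotypes, where they lay between -0.01 and 0.01. With the replicate block 7 pairs were called, of 4 genes. In wild type under MIA, Clu fell in apical progenitor-like nuclei (-1.138, edgeR adjusted p = 0.001392), Pafah1b3, a subunit of the acetylhydrolase that binds Lis1, in Ndst3/Pdzrn3 (-0.741, 0.0343) and MGE interneuron-like nuclei (-0.771, 0.03491), and Cfl1, the actin-severing protein cofilin, in the latter (-0.62, 0.04565), while Adamts2, a secreted metalloprotease, rose in Ndst3/Pdzrn3 nuclei (1.676, 0.02778). Clu was also called over both genotypes, and for genotype in dividing apical progenitor-like nuclei (-0.805, edgeR adjusted p = 0.01358). The share of all gene and class pairs called with the block was 0.59%, 0.0743% and 0.0969% in these comparisons.

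The lowest unadjusted p-values under MIA over both genotypes were both in apical progenitor-like nuclei. Clu encodes clusterin, a secreted chaperone and lipoprotein component. It was 301 and 192 CPM in wild-type saline, 106 and 131 in wild-type MIA, 140 and 120 in Csf1r-null saline, and 92.5 and 123 in Csf1r-null MIA. The wild-type groups did not overlap and the Csf1r-null groups did, and the log2 change over both was -0.71 ± 0.19 (edgeR adjusted p = 0.631). With the replicate block it was -0.718 and was called (edgeR adjusted p = 0.02587), and without the 2 libraries against their labels it was -0.83 and was not (0.9718). Rap1a, a small GTPase that acts downstream of Dab1 and Crk in neuronal adhesion, was 62.1 and 74.4 CPM in wild-type saline, 60.0 and 56.4 in wild-type MIA, 72.5 and 76.3 in Csf1r-null saline, and 31.4 and 48.2 in Csf1r-null MIA. Each MIA library was below the saline libraries of its genotype, with a log2 change of -0.61 ± 0.20 (edgeR adjusted p = 0.6688), -0.611 with the block (0.1705) and -0.562 without the 2 libraries (0.9718).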

How the data were processed

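Nuclei of 8 cortex libraries were sequenced with 10x 3' chemistry. The authors deposited UMI counts per gene and barcode, made against mm10 (GRCm38) with Cell Ranger. The labels and the headers of the replicate 1 files name version 3.1.0, and the headers of the replicate 2 files and the study's methods name 6.0.1. Whether intronic reads or strand entered the counts is not given in the sources used here. Replicate 1 files list all 6794880 barcodes and replicate 2 files called barcodes, and the 30406 genes of both gene lists were joined by identifier. Sorted microglia libraries were not used here.

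A barcode was taken as a nucleus from 500 UMIs and 200 genes upward, and the top Scrublet scores were removed as doublets (the automatic threshold marked 0.0 to 2.52%). Nuclei were clustered with scanpy 1.11.5 and leidenalg 0.10.2. The members, the pathway genes, Csf1r and the genes of the study's list for nuclei, 679 in all, took no part in clustering. Clusters were named from marker lists. Counts were summed per library and class and tested with edgeR 4.0.16 (TMM, filterByExpr, quasi-likelihood, group as the only term, all 8 libraries in 1 model a class), with Benjamini-Hochberg adjustment. The scripts were tested on simulated data. DESeq2 1.42.0, other size factors, no filter, a replicate block, doublets kept, nuclei of at least 1000 UMIs and libraries left out were alternatives. Same-numbered libraries deviated together (6 correlations of 0.534 to 0.759 over 11319 genes), so the numbers pair the libraries. The main fit and the permutation tests do not use this pairing, so the difference between replicate numbers is part of their spread. Shares with a UMI were taken after thinning nuclei to 1000 UMIs. Intervals of shares of nuclei cover counting error only. Those of the part of Reln UMIs take UMIs of the same nucleus as independent and leave out the sampling of nuclei.

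Fold changes are given for each member in the 3 tested classes with its highest level, and for other pathway genes that were called or else the 2 with the lowest unadjusted p under MIA over both genotypes. Pairs with an unadjusted p under 0.05, pathway genes called with the replicate block, and the test of Reln within Cajal-Retzius-like nuclei, were added after their values were seen. The members and lists were chosen with earlier results of these data known.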

Additional observations from a re-analysis of the deposited data

How the results depend on the processing

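No member was called at an adjusted p of 0.05 in any alternative, the replicate block and DESeq2 included, so the reversals below are of log2 changes that were not called. Of 605 alternative values of 46 results, 516 were labelled the same, 51 reversed and 38 moved. For tests the same means an equal direction and side of the threshold. For levels and shares with a UMI it means a shift under the SD of libraries. Leaving out libraries could not move a level that far, so those labels were fixed in advance. The permutation results could not pass 0.05 in any alternative, since their smallest possible p is 0.0556 with all 8 libraries and no lower with fewer. The numbers of genes called, over the 14 classes, moved most. For MIA in wild type the main count of 0 became 64 with DESeq2, 312 with no filter, 731 with the replicate block and 2 without both libraries against their labels. For MIA in Csf1r-null it became 1, 16, 7 and 3. For the difference of the responses it became 44 with no filter, 14 with the block and 12 without both libraries. For MIA over both genotypes the main count of 1 became 15 with DESeq2, 0 with at least 1000 UMIs, 69 with no filter, 92 with the block and 2 without both libraries. For genotype 0 became 4, 92, 120 and 1 with DESeq2, no filter, the block and without both libraries. Leaving out 1 library at a time gave 0 to 19, 0 to 3, 0 to 3, 1 to 10 and 0 to 14 in the same order. The cause was not tested.

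Reln within Cajal-Retzius-like nuclei changed by -42.5 CPM under MIA, by 22.5 with doublets kept, by 162 without both libraries and by -732 to 648 when 1 library was left out. The difference in their part of Reln UMIs was -0.301 to 5.09 percentage points when 1 library was left out. Without both libraries, Dab1 in subcerebral neuron-like nuclei changed by 0.023 in wild type and -0.053 in Csf1r-null on the log2 scale, Dab1 in Lrrtm3/Opcml nuclei by 0.052 in Csf1r-null, Vldlr in corticothalamic neuron-like nuclei by 0.122 in Csf1r-null, and Lrp8 by -0.295 in intermediate progenitor-like and -0.054 in migrating neuron-like nuclei of wild type. With doublets kept, Dab1 in subcerebral neuron-like nuclei changed by 0.014 in wild type, Vldlr in corticothalamic neuron-like nuclei by 0.008 in Csf1r-null and Lrp8 in dividing intermediate progenitor-like nuclei by 0.054 in wild type. Lrp8 in intermediate progenitor-like nuclei changed by -0.037 in Csf1r-null with at least 1000 UMIs, and in migrating neuron-like nuclei of Csf1r-null by -0.002 with the other size factors and -0.001 with DESeq2.

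With 1 library left out, the log2 changes that reversed ranged as follows. Those of Reln were -0.822 to 0.506 in MGE interneuron-like and -0.327 to 1.636 in Lrrtm3/Opcml nuclei of Csf1r-null. Those of Dab1 were -0.025 to 0.028 and -0.046 to 0.127 in subcerebral neuron-like nuclei of wild type and Csf1r-null, -0.084 to 0.054 in Lrrtm3/Opcml nuclei of Csf1r-null, and -0.011 to 0.118 and -0.07 to 0.023 in Inhba/Ntm nuclei. Those of Vldlr were -0.273 to 0.438 and -0.158 to 0.124 in corticothalamic neuron-like nuclei, -0.212 to 0.323 in Lrrtm3/Opcml nuclei of wild type, and -0.013 to 0.577 and -0.492 to 0.096 in subcerebral neuron-like nuclei. Those of Lrp8 were -0.297 to 0.312 and -0.273 to 0.452 in intermediate progenitor-like nuclei, -0.348 to 0.263 in dividing ones of wild type, and -0.088 to 0.514 and -0.189 to 0.195 in migrating neuron-like nuclei. Of all 24 changes, 7 kept their sign. In wild type those of Reln were 0.073 to 1.188 in MGE interneuron-like, 0.125 to 0.53 in Unc5c/Kcnip4 and 0.042 to 0.949 in Lrrtm3/Opcml nuclei. Dab1 had 0.018 to 0.315 in Lrrtm3/Opcml nuclei of wild type. In Csf1r-null, Reln had 0.652 to 1.231 in Unc5c/Kcnip4 and Vldlr 0.099 to 0.33 in Lrrtm3/Opcml nuclei. Lrp8 had 0.019 to 0.434 in dividing intermediate progenitor-like nuclei of Csf1r-null. As means over libraries, the share of nuclei with a UMI went with all UMIs from 40.9 to 76.7% for Dab1 in subcerebral neuron-like, from 9.88 to 28.5% for Vldlr in corticothalamic neuron-like and from 39.4 to 53.9% for Lrp8 in intermediate progenitor-like nuclei. The level of each member in its highest class stayed within the spread of libraries with doublets kept and with at least 1000 UMIs. Leaving out libraries could not have moved it further, so those alternatives do not test it. Depth limits Reln outside its main classes, where a library held as few as 2 Reln UMIs in Lrrtm3/Opcml nuclei.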
